A study of Homo sapiens with 42 samples.

Results

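Aminoacyl-tRNA synthetases join each amino acid to its tRNA. The genes were taken by symbol: a one-letter amino acid code followed by ARS, with or without a final 1 or 2, together with EPRS1, FARSA and FARSB. This found 37 of the 20515 named entries in the deposited table. Described here are 35 of them: the 16 whose symbol ends in 2 code for mitochondrial enzymes and the other 19 for cytosolic ones. All 37 had a mean normalized read count of 10 or more and entered the test with 14331 genes. HAP1, a near-haploid human cell line derived from a chronic myeloid leukaemia line, was treated with buthionine sulfoximine (BSO) at 200 µM over 48 h, begun after 4 h, or stayed in media alone. The question addressed is what loss of glutathione synthesis does to RNA levels in cells that lack the NEIL DNA glycosylases, which start base excision repair of oxidised bases. The groups were neil1, neil2, neil3 and neil123 knockouts and wild type (wt), each with and without BSO, with 3, 3, 4, 4 and 7 libraries per treatment. Lines were read from the sample titles, which gave 2 for each knockout and 3 for wt. This reading is an assumption and was not the same for all genotypes. In neil1 and neil2, replicates whose names differ only after the point were put in 1 line, while such wt names were kept as separate lines. A BSO and a media library with the same replicate name form a pair (21 pairs). The sample titles call the libraries biological replicates, except for the wt libraries whose names have no final letter. They do not say whether a line is 1 clone or whether replicates of a line were grown as separate cultures. The p-values measure the spread between these libraries, and how much of it is technical was not tested.

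A cell has separate synthetases for the tRNAs in the cytosol and for those coded in the mitochondrial genome, except that GARS1 and KARS1 each make both enzymes from the same gene. Glutamine has no mitochondrial synthetase of its own, because EARS2 loads glutamate onto the mitochondrial glutamine tRNA and an amidotransferase converts it. BSO blocks glutamate-cysteine ligase, and a lack of amino acids or an oxidative or mitochondrial stress can raise translation of ATF4, a transcription factor of the integrated stress response whose described targets include many cytosolic synthetases, amino acid transporters and enzymes of serine and asparagine synthesis. Several cytosolic synthetases sit with scaffold proteins in the multi-tRNA synthetase complex.

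Libraries held 26.8 to 30.7 M reads in named genes. Replicate names fall into an unlettered set (18 libraries, 29.9 to 30.7 M reads) and a lettered set with a final A or B (24 libraries, 26.8 to 28.7 M reads). The neil1 and neil2 libraries were all unlettered, the neil3 and neil123 libraries all lettered, and wt had 3 unlettered and 4 lettered libraries per treatment. RNA of the targeted genes in media, in normalized read counts, was set against wt libraries of the same set. NEIL1 spanned 284 to 513 in neil1, against 309.6 to 403 in wt, and 842 to 1072 in neil123, against 774 to 975 in wt. NEIL2 spanned 299.8 to 328 in neil2, against 487 to 613 in wt, and 215 to 242 in neil123, against 364 to 425 in wt. NEIL3 spanned 409.6 to 614 in neil3, against 589.7 to 671 in wt, and 381 to 472 in neil123, against 589.7 to 671 in wt. All knockout libraries lay below wt for NEIL2 in neil2 and neil123 and for NEIL3 in neil123, while the ranges overlapped for NEIL1 and for NEIL3 in neil3. RNA counted over a whole gene need not show a small edit, so the overlap does not check the labels. The line's markers VIM, BCR and ABL1 were present in every library, while CDH1, PECAM1, ALB and PTPRC had medians of at most 1. Of 12 markers of other cell types 8 were in the table, and their summed counts ran from 560.6 to 2420.1 under BSO and from 590.4 to 2841.8 in media, most of it COL1A1.

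Under BSO, RNA of 11 of the 19 cytosolic synthetases rose and that of 2 fell, in the mean of the changes of the 5 genotypes. Over all 14331 genes tested, 13.09% were higher and 12.5% lower by the same test (limma with Benjamini-Hochberg adjusted p under 0.05). The genes that rose were GARS1, WARS1, SARS1, CARS1, MARS1, AARS1, YARS1, EPRS1, NARS1, TARS1 and IARS1, and their log2 changes ran between 0.12 and 0.48. Each of the 11 was higher under BSO in 21 of 21 pairs. HARS1 and QARS1 fell, by 0.13 and 0.06 on the log2 scale. With the replicate block, which uses the pairs, 4 fell, while 3117 of all genes tested were lower in that fit. Of the 16 mitochondrial synthetases, FARS2 rose and EARS2, YARS2, MARS2 and IARS2 fell, with changes of -0.17 to 0.09. The median log2 change was 0.14 over the cytosolic genes and -0.06 over the mitochondrial genes, against -0.0033 over all genes. Scaling every library to the same total moved the median change of all genes to -0.018. The split of called genes became 1570 higher and 2333 lower, against 1876 and 1791 as reported. The 11 rises and the falls of HARS1 and QARS1 were called there too. FARSB (limma adjusted p = 0.00408) and VARS1 (limma adjusted p = 0.00978) were also called lower there, and 7 mitochondrial genes were called. In bulk RNA a shift in the mix of cells and a shift within each cell cannot be told apart.

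**Figure D1:**
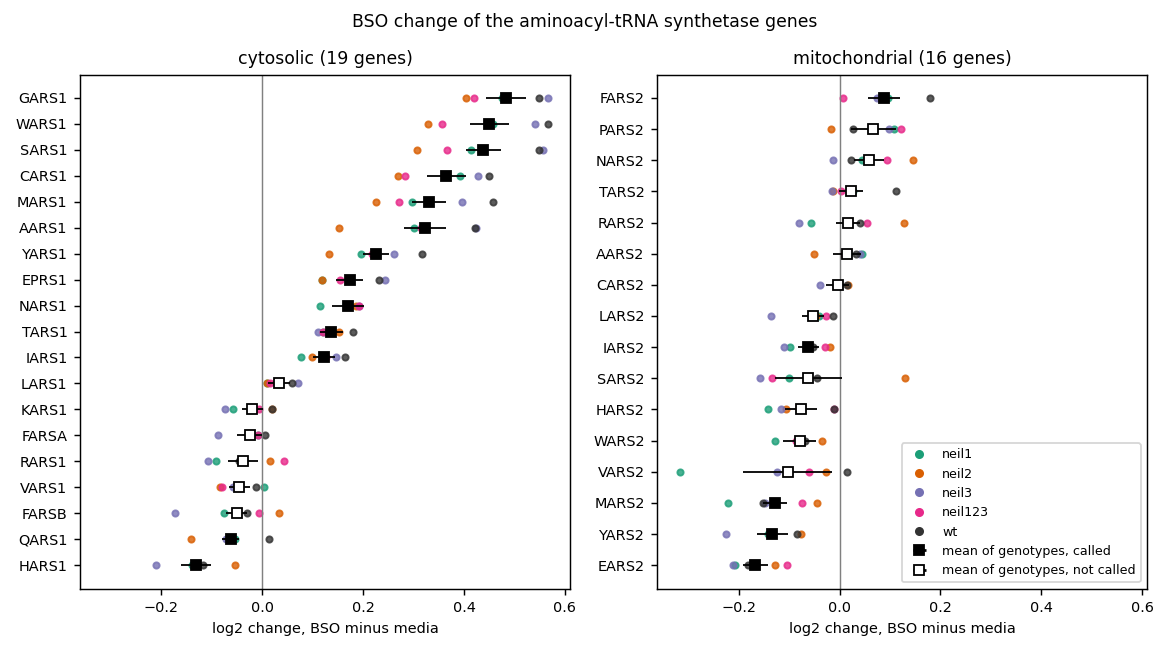
Change in RNA of each synthetase gene under BSO, as the log2 difference BSO minus media on the horizontal axis, with cytosolic genes on the left and mitochondrial genes on the right. Small points are the 5 genotypes, squares are their mean with 1 standard error on either side, and filled squares passed limma's adjusted threshold; the 11 cytosolic genes at the top of their panel lie to the right of 0 in every genotype.

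The core of the element that ATF4 and C/EBP proteins bind was looked for in RefSeq promoter windows (GRCh38.p14, 250 bases before to 50 after a start), because 13 of the cytosolic genes are described as ATF4 targets. The motif was TGATGNAA or its reverse complement TTNCATCA on the strand of the gene, so that both strands were searched. Windows were found for 30 members. The motif occurred in 7 of 16 cytosolic genes (43.8%) and 1 of 14 mitochondrial genes (7.1%), against 4.46% of the 27305 genes with a window. Among the cytosolic genes it occurred in 7 of the 10 that rose and had a window and in 0 of the 6 others. The matches in 6 of the 7 cytosolic genes were the full TGATGCAA or TTGCATCA, which 1.08% of genes hold; this stricter form was searched after the matches had been seen. The 8 matches are given within 60 bases each, 5′ to 3′ on the strand of the gene, with the motif in capitals, because 7 of the 8 belong to genes that rose. AARS1 is chr16:70289660-70289719, CARS1 chr11:3057394-3057453, IARS1 chr9:92293677-92293736 and NARS1 chr18:57621807-57621866, all on the minus strand. GARS1 is chr7:30594819-30594878, MARS1 chr12:57488038-57488097 and TARS1 chr5:33440935-33440994 on the plus strand. YARS2, the mitochondrial match, is chr12:32756061-32756120 on the minus strand.
AARS1: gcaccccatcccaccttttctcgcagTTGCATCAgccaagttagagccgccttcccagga
CARS1: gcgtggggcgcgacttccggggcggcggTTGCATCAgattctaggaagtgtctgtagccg
GARS1: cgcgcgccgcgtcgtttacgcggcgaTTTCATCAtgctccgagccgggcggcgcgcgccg
IARS1: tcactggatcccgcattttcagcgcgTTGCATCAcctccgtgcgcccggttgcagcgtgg
MARS1: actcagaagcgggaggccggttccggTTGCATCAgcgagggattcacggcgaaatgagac
NARS1: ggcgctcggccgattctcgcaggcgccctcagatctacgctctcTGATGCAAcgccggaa
TARS1: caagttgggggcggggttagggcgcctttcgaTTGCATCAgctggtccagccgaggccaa
YARS2: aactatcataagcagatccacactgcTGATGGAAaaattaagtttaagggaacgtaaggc
In CARS1, MARS1 and TARS1 the motif began between 4 bases before and 3 bases after the start, in IARS1 13 bases before it, in NARS1 15 bases after it, and in GARS1 33 bases before the start of the second of its 2 windows. CARS1 and TARS1 also have 2 windows each, with the match in the first. The start used for TARS1 is that of its window and lies inside the gene, whose first base is chr5:33440696. In AARS1 it began 187 and in YARS2 197 bases before the start. The GARS1 match is the looser TTTCATCA, and the YARS2 match the looser TGATGGAA. SARS1, WARS1 and EPRS1 also rose, and the letters of the motif are not in their windows, which says nothing about the factor. YARS1, LARS1, VARS1, AARS2 and VARS2 were not searched. A match is a description of the sequence and not a binding site.

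GARS1 had the largest log2 change of the 35 genes. It codes for glycyl-tRNA synthetase of the cytosol and of mitochondria (chr7:30594735-30634033, plus strand, GRCh38, as are all positions here). Normalized read counts are given in the order of the replicate names, so that values in the same place under BSO and in media are a pair. GARS1 had 23426, 19663 and 18139 under BSO, against 16302, 13699.9 and 13917 in media in neil1 cells. In neil2 it had 15431, 16655 and 20337 under BSO, against 12416, 13019 and 13951 in media. The groups did not overlap in either knockout. In neil3 the counts were 17884, 15261, 17344 and 16179 under BSO, against 11399.7, 11770.2, 10727 and 11077 in media. In neil123 they were 15753, 15281, 13259 and 12401 under BSO, against 10763, 10865, 9822 and 10749 in media. All BSO libraries lay above all media libraries in both. The 7 wt pairs had a lowest value of 14418, a median of 18617 and a highest of 22777 under BSO, against 10950.3, 12442 and 14506 in media. The wt groups overlapped by 1 BSO library, wt 1.1B, which lay below the highest media value, although within the lettered wt libraries (14418 to 18665 under BSO, 10950.3 to 12442 in media) and within the unlettered ones (18617 to 22777 and 13122 to 14506) they did not. The mean log2 change was 0.48 ± 0.04 (limma adjusted p = 1.33e-11), higher in 21 of 21 pairs with pair changes of 0.21 to 0.76. By genotype it was 0.48 ± 0.10 in neil1 (limma adjusted p = 0.0108), 0.57 ± 0.09 in neil3 (limma adjusted p = 4.53e-05), 0.42 ± 0.09 in neil123 (limma adjusted p = 0.00503) and 0.55 ± 0.07 in wt (limma adjusted p = 2.39e-07). In neil2 it was 0.40 ± 0.10, which missed the threshold (limma adjusted p = 0.0971) and passed it with the pairs as a replicate block (limma adjusted p = 0.0013).

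WARS1, tryptophanyl-tRNA synthetase (chr14:100333790-100376327, minus strand), is also known as a gene that interferon gamma induces. Its counts were 12142, 9459 and 8709 under BSO, against 7905, 7113 and 6859 in media in neil1. In neil2 they were 7324, 7586 and 8938 under BSO, against 5702, 6404 and 6874 in media. Every BSO library was above every media library in these knockouts, and neil1 rep12 was the highest of the neil1 libraries under BSO. In neil3 the values were 10058, 9391, 9824 and 9725 under BSO, against 6900.0, 6926, 6476 and 6508 in media. In neil123 they were 8519.9, 8468, 7590.0 and 7017 under BSO, against 6165, 6337, 6015 and 6085 in media. The neil123 BSO libraries of line 2 were nearer to media than those of line 1. In wt WARS1 had a lowest value of 8587, a median of 10755 and a highest of 11695 under BSO, against 6632, 6941 and 7525 in media. The wt groups did not overlap, so that WARS1 was separated in all 5 genotypes. The mean log2 change was 0.45 ± 0.04 (limma adjusted p = 5.03e-11), with pair changes of 0.21 to 0.82. It passed in neil1 (0.46), neil3 (0.54), neil123 (0.36) and wt (0.57). In neil2 the change of 0.33 passed only as a paired test with the replicate block (limma adjusted p = 0.00296, without the block 0.22).

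SARS1 (chr1:109213893-109238182, plus strand) loads serine onto serine tRNAs and onto the selenocysteine tRNA, which starts selenoprotein synthesis. It had 12994, 10176 and 10646 under BSO, against 9603, 7699.9 and 8049 in media in neil1. Counts in neil2 were 10053, 10261 and 11308 under BSO, against 8011, 8636 and 8926 in media. BSO libraries were all above media in both. In neil3 SARS1 had 10734, 9783, 10524 and 10216 under BSO, against 6968, 7386, 6572 and 7121 in media. In neil123 it had 9863, 10047, 8625 and 8332 under BSO, against 7216, 7455, 6611 and 7259 in media. The lowest neil3 BSO value was above the highest neil3 media value by more than the spread of either group, while neil123 2B had the smallest pair change. Over wt, SARS1 had a lowest value of 9361, a median of 11298 and a highest of 12738 under BSO, against 6781, 7509 and 8382 in media. These groups did not overlap either, which makes SARS1 separated in all 5 genotypes. Its mean log2 change of 0.44 ± 0.04 (limma adjusted p = 4.94e-12) was higher in every pair, between 0.20 and 0.77. It passed in neil1 (0.41), neil3 (0.56), neil123 (0.37) and wt (0.55). The neil2 change of 0.31 had a limma adjusted p of 0.178 and, with the replicate block, 0.00225.

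CARS1 (chr11:3000929-3057423, minus strand) codes for cysteinyl-tRNA synthetase, which uses the amino acid that limits glutathione synthesis. Counts were 4273, 3338 and 3476 under BSO, against 3267, 2453 and 2732 in media in neil1. They were 3327, 3427 and 3676 under BSO, against 2727, 2915 and 3008 in media in neil2. The groups did not overlap, and neil1 rep12 was the highest of these libraries in each treatment. In neil3 CARS1 had 3642, 3262, 3589 and 3569 under BSO, against 2743, 2672, 2487 and 2545 in media. In neil123 it had 3423, 3289, 2914 and 2729 under BSO, against 2534, 2569, 2508 and 2506 in media. The neil123 groups were separated, with 2B under BSO closest to media. The wt libraries had a lowest value of 2992, a median of 3580.4 and a highest of 3914 under BSO, against 2417, 2563 and 2829 in media. They did not overlap. CARS1 changed by 0.37 ± 0.04 (limma adjusted p = 3.27e-09) in the mean, with pair changes of 0.12 to 0.62. The change passed in neil1 (0.39), neil3 (0.43) and wt (0.45). In neil2 and neil123 it was 0.27 and 0.28, which passed only with the replicate block (limma adjusted p = 0.0046 in neil2 and 0.000317 in neil123, without it 0.363 and 0.0857).

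MARS1 (chr12:57488068-57516652, plus strand), which loads methionine onto the initiator and elongator tRNAs, had 14098, 11514 and 12081 under BSO, against 11546, 9225 and 9917 in media in neil1. In neil2 it had 10953, 11205 and 12829 under BSO, against 9145, 10097 and 10654 in media. The neil1 groups overlapped because the neil1 rep12 media library was above 1 BSO library of line 13, and the neil2 groups did not. In neil3 the counts were 11715, 10352, 11671 and 11383 under BSO, against 8453, 8286, 8857 and 8642 in media. In neil123 they were 10854, 10476, 9940.4 and 8972 under BSO, against 8638, 8439, 7981 and 8206 in media. Both were separated. The wt values were a lowest value of 10294, a median of 12391 and a highest of 13127 under BSO, against 7954, 8836 and 9114 in media, also without overlap. MARS1 changed by 0.33 ± 0.03 (limma adjusted p = 1.71e-09) in the mean and by 0.13 to 0.59 in single pairs. It passed in neil3 (0.40), neil123 (0.27) and wt (0.46). In neil1 and neil2 the changes of 0.30 and 0.23 passed only with the replicate block (limma adjusted p = 6.21e-05 in neil1 and 0.00265 in neil2, without it 0.0783 and 0.401).

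AARS1 (chr16:70252298-70289506, minus strand), alanyl-tRNA synthetase, also clears tRNAs that were loaded with serine by mistake. In neil1 it had 12509, 9746 and 9389 under BSO, against 10361, 7669 and 7724 in media. The neil2 counts were 8883, 9282 and 10830.3 under BSO, against 7859, 8979 and 9196 in media. BSO and media groups overlapped in both, and the neil2 rep11.2 pair differed least. In neil3 AARS1 had 9804, 9621, 9199.7 and 10136 under BSO, against 6732, 7919, 6631 and 7684 in media. In neil123 the counts were 8327, 8936, 7631 and 7723 under BSO, against 6593, 7023, 5790.1 and 6840.4 in media. These knockouts had no overlap. The wt libraries had a lowest value of 9043, a median of 10298 and a highest of 11703 under BSO, against 6755, 7805 and 8986 in media, again separated. The mean log2 change was 0.32 ± 0.04 (limma adjusted p = 2.11e-07) with pair changes of 0.05 to 0.59. It passed in neil3 (0.42) and wt (0.42). In neil1 and neil123 it was 0.30 and 0.31 and passed only with the replicate block (limma adjusted p = 0.00068 in neil1 and 4.55e-05 in neil123, without it 0.212 and 0.073). The neil2 change of 0.15 passed in neither fit (limma adjusted p = 0.797, with the block 0.102).

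YARS1 (chr1:32775239-32817358, minus strand) codes for tyrosyl-tRNA synthetase. It had 15437, 13268 and 12262 under BSO, against 13314, 11173 and 11234 in media in neil1. YARS1 counts in neil2 were 11657, 11528 and 13198 under BSO, against 10480.1, 11223 and 11460.1 in media. The neil1 groups overlapped and the neil2 groups lay apart by a margin far below the spread of either. Counts in neil3 were 12707, 12058, 12393 and 12339.7 under BSO, against 10336, 10685, 9915 and 10337 in media. Counts in neil123 were 11996, 11525, 10714 and 10887 under BSO, against 9770.2, 10117, 9168 and 9731 in media. Neither overlapped. In wt YARS1 had a lowest value of 11696, a median of 13091 and a highest of 14459 under BSO, against 9924, 10412 and 11469 in media, also without overlap. Its mean log2 change was 0.23 ± 0.03 (limma adjusted p = 3.52e-08), between 0.04 and 0.38 over the pairs. The change passed in neil3 (0.26), neil123 (0.22) and wt (0.32). In neil1 it was 0.20 and passed only with the replicate block (limma adjusted p = 0.0025, without it 0.192). In neil2 it was 0.13 and passed in neither (limma adjusted p = 0.628, with the block 0.0545).

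EPRS1 (chr1:219968600-220046505, minus strand) joins glutamate and proline synthetase activities in 1 protein and is the largest member of the complex. It had 10714, 10958 and 9619 under BSO, against 10082, 9466 and 9246 in media in neil1. The neil2 libraries had 10106, 9078 and 10496 under BSO, against 9027, 8665 and 9634 in media. The groups overlapped in both. In neil3 EPRS1 had 7789.7, 6657, 7252 and 7007 under BSO, against 6135, 6105, 5659.7 and 6342 in media. In neil123 it had 7390.4, 6957, 6854 and 6863 under BSO, against 6341, 6153, 6096 and 6617 in media. Both of these were separated. Across wt, EPRS1 had a lowest value of 7160.2, a median of 8305 and a highest of 11154 under BSO, against 6109.7, 6734 and 9759 in media. Levels differed by label set: in media the lettered wt libraries ran from 6109.7 to 6734 and the unlettered from 8905 to 9759. Within the lettered set BSO gave 7160.2 to 8305, above media, and within the unlettered set 9677 to 11154, which overlaps media. The mean log2 change was 0.17 ± 0.03 (limma adjusted p = 5.78e-06), higher in 21 of 21 pairs (0.04 to 0.38). It passed in neil3 (0.24) and wt (0.23). In neil123 it was 0.16 and passed only with the replicate block (limma adjusted p = 0.0281, without it 0.266).

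**Figure D2:**
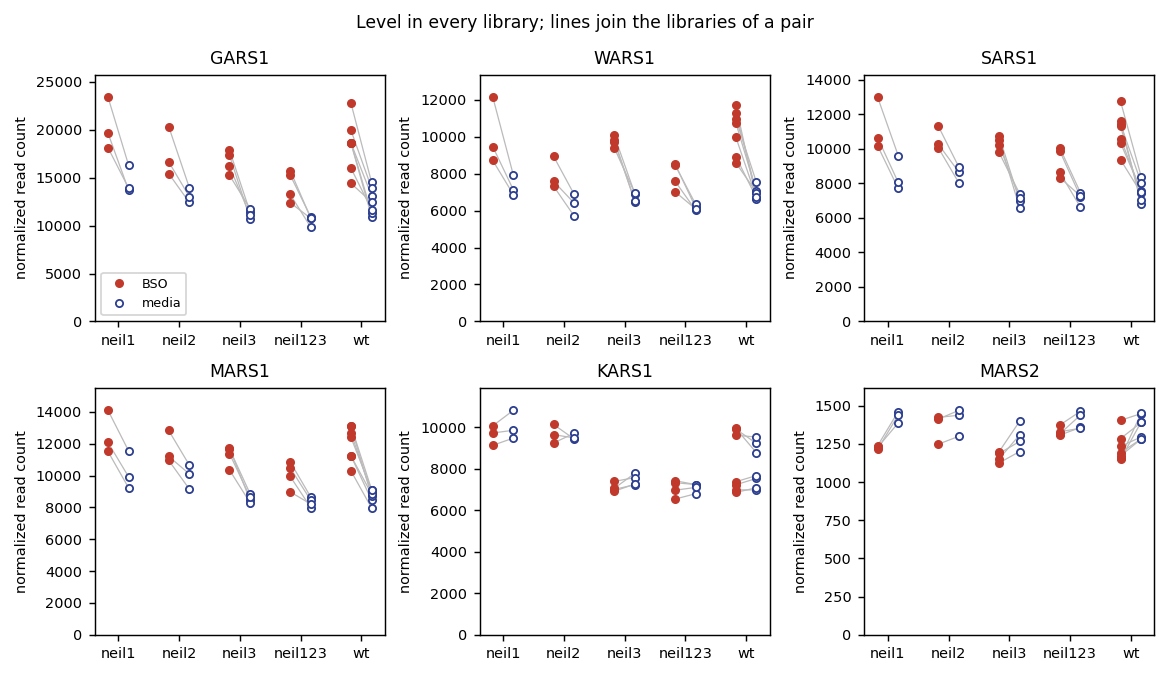
Normalized read count on the vertical axis, from 0, of 6 synthetase genes in every library by genotype, with BSO as filled and media as open circles and lines joining the libraries of a pair. In GARS1, WARS1, SARS1 and MARS1 every line falls toward media, KARS1 shows lines in both directions and a step between the label sets, and in MARS2 every line climbs toward media.

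NARS1, TARS1 and IARS1, the asparagine, threonine and isoleucine enzymes, had smaller changes. NARS1 changed by 0.17 ± 0.03 (limma adjusted p = 7.7e-05), with pair changes of 0.08 to 0.35. TARS1 changed by 0.14 ± 0.02 (limma adjusted p = 1.65e-05), with 0.06 to 0.26. IARS1 changed by 0.12 ± 0.02 (limma adjusted p = 7.41e-05), with 0.02 to 0.25. All were higher under BSO in 21 of 21 pairs, and without a replicate block each passed in wt and in no knockout. With the block, NARS1 passed in neil2, neil3, neil123 and wt (limma adjusted p = 0.0154 in neil2). TARS1 passed with it in all 5 genotypes (limma adjusted p = 0.035 in neil1). IARS1 passed with it in neil3, neil123 and wt (limma adjusted p = 0.00485 in neil3).

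Of the 13 cytosolic genes described as ATF4 targets, these 11 rose, against 13.09% of all genes, and LARS1 and VARS1 did not pass. The list was chosen with earlier results of these data known, so the count is not an independent check. LARS1, leucyl-tRNA synthetase and a leucine sensor upstream of mTORC1, had a mean change of 0.03 ± 0.02 (limma adjusted p = 0.27) and was higher in 16 of 21 pairs. VARS1, valyl-tRNA synthetase, had -0.05 ± 0.02 (limma adjusted p = 0.109), lower in 15 of 21 pairs. With the replicate block VARS1 fell (limma adjusted p = 0.0157), as it did with equal library totals (limma adjusted p = 0.00978). The median log2 change of the 13 was 0.23 in the mean of the genotypes; in wt alone it was 0.31 in the 4 lettered and 0.32 in the 3 unlettered wt pairs.

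None of the 6 other cytosolic genes rose, and 2 fell, against 13.09% higher and 12.5% lower among all genes. For a list of 6 genes, a count of 0 rises is near that share. HARS1, histidyl-tRNA synthetase, changed by -0.13 ± 0.03 (limma adjusted p = 0.00121) and was lower in 20 of 21 pairs. It starts beside HARS2, which runs the other way, and whether reads were counted by strand is not given in the sources used here. QARS1, glutaminyl-tRNA synthetase, changed by -0.06 ± 0.02 (limma adjusted p = 0.00279) and was lower in 18 of 21 pairs. The wt label sets were not alike in these genes, a difference that was not tested. QARS1 changed by -0.05 in the 4 lettered wt pairs, where it was lower in 4, and by 0.10 in the 3 unlettered ones, where it was higher in 3. HARS1 changed by -0.17 in the lettered and -0.05 in the unlettered wt pairs. QARS1 did not pass without the label-set term (limma adjusted p = 0.129). FARSB, the beta subunit of phenylalanyl-tRNA synthetase, had a mean change of -0.05 ± 0.02 (limma adjusted p = 0.0696), and FARSA, its alpha subunit, -0.03 ± 0.03 (limma adjusted p = 0.512). FARSB fell in the mean with the replicate block (limma adjusted p = 0.0271), with equal library totals (limma adjusted p = 0.00408) and by edgeR (edgeR adjusted p = 0.0408). Without the block its change was -0.17 ± 0.05 in neil3 (limma adjusted p = 0.0147). HARS1 fell by genotype with -0.21 ± 0.07 in neil3 (limma adjusted p = 0.0482). RARS1, arginyl-tRNA synthetase, had -0.04 ± 0.03 (limma adjusted p = 0.395), lower in 14 of 21 pairs.

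KARS1 (chr16:75627724-75647665, minus strand), the lysine enzyme, is with GARS1 the other gene that serves both compartments. In neil1 it had 10074, 9728 and 9135 under BSO, against 10823, 9859.5 and 9482 in media. Counts in neil2 were 10143, 9245 and 9646 under BSO, against 9435, 9715 and 9493 in media. The neil1 libraries were lower under BSO in 3 of 3 pairs but the groups overlapped, and in neil2 they lay on both sides. In neil3 KARS1 had 7061, 7006, 7393 and 6921 under BSO, against 7785, 7238, 7579 and 7268 in media. Its neil123 counts were 7427, 7333, 6541 and 6968 under BSO, against 7240.3, 7243, 6801 and 7104 in media. Groups overlapped in both. In wt KARS1 had a lowest value of 6861, a median of 7378 and a highest of 9953 under BSO, against 6985, 7674 and 9531 in media, with overlap. KARS1 was higher in 8 and lower in 13 of 21 pairs, with a mean change of -0.02 ± 0.02 (limma adjusted p = 0.53) and a 95% interval of -0.06 to 0.02, while the interval of GARS1 was 0.40 to 0.56. Its level stepped with the label set: in media the unlettered wt libraries had 8776 to 9531 and the lettered 6985 to 7674, with no overlap.

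By genotype the number of cytosolic genes that passed ran from 0 to 11. In neil1 4 of 19 rose (GARS1, WARS1, SARS1 and CARS1) and none fell, against 0.823% higher and 0.321% lower among all genes. With the replicate block it was 8 of 19, while 589 of all 14331 genes were higher and 506 lower in that fit. In the fit without the block, the count was 0 without BSO rep12, media rep13.1 or media rep13.2, and 7 without media rep12. In neil2 0 of 19 rose or fell by limma, against 0.14% higher and 0.014% lower among all genes by the same test. There 8 of the 19 had an unadjusted p under 0.05, and edgeR called 0. The share of all genes at that unadjusted threshold is not given, so the 8 cannot be set against it. With the block 7 rose there (CARS1, GARS1, MARS1, NARS1, SARS1, TARS1 and WARS1) and QARS1 fell. That fit called 529 of all genes higher and 297 lower in neil2. In neil3 8 rose (GARS1, WARS1, SARS1, CARS1, MARS1, AARS1, YARS1 and EPRS1) and 2 fell, against 3.36% and 2.92% of all genes. With the block 11 rose there, while 1410 of all genes were higher. In neil123 5 rose (GARS1, WARS1, SARS1, MARS1 and YARS1) and none fell, against 1.33% and 0.272%. With the block 11 rose there, while 795 of all genes were higher. In the fit without the block, the count was 2 without BSO 1A, BSO 1B, media 1A, media 2A or media 2B. In wt, with the most libraries, 11 rose and none fell, against 7.24% higher and 6.28% lower, and HARS1 fell with the block (limma adjusted p = 0.00872). Since libraries of a line may not be separate cultures, they were also averaged to 1 mean per line, label set and treatment. A wt line with libraries in both label sets kept a mean for each, so wt entered with more means than a knockout. In that fit 0 rose in neil1, 0 in neil2, 4 in neil3, 0 in neil123 and 10 in wt. The estimated change of each of the 11 genes was above 0 in every genotype. With equal library totals the split of all called genes, higher and lower, was 124 and 79 in neil1 (118 and 46 as reported), 16 and 9 in neil2 (20 and 2) and 855 and 1259 in wt (1038 and 900 as reported).

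In media no synthetase was called between a knockout and wt, and none was called for the difference between a knockout's BSO change and that of wt. All these comparisons share the wt libraries. In media the count was 0 of 35 for each knockout by limma and by edgeR, with 2 of 35 in neil1, 2 in neil2, 2 in neil3 and 1 in neil123 at an unadjusted p under 0.05. Among all genes, in either direction, 0.349% passed limma's adjusted threshold for neil1, 10.52% for neil2, 0.579% for neil3 and 7.67% for neil123. For the difference of BSO changes it was again 0 of 35 for each knockout by both tools. Limma's adjusted threshold was passed by 0.0% of all genes for neil1, 0.0% for neil2, 0.0% for neil3 and 0.0% for neil123. At an unadjusted p under 0.05 there were 0, 5, 1 and 0 members in neil1, neil2, neil3 and neil123. The share of all genes at an unadjusted p under 0.05 is not given here, for this comparison or in media. The 5 in neil2 were AARS1, MARS1, SARS1, YARS1 and QARS1, each with a lower estimate in neil2 than in wt. For GARS1 the 95% interval of that difference in neil2 was -0.38 to 0.09, and for AARS1 -0.51 to -0.02 (limma adjusted p = 1.0). A p that misses the threshold does not show that the genotypes responded alike.

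Mitochondrial synthetases had 5 of 16 genes called in the mean of the genotypes, 1 higher and 4 lower, against 13.09% higher and 12.5% lower among all genes. By genotype none of the 16 rose or fell in neil1 by limma (2 at an unadjusted p under 0.05, 0 by edgeR), none in neil2 (1 and 0) and none in neil123 (1 and 0). For the unadjusted counts the share of all genes is not given. In neil3 2 fell, EARS2 and YARS2, and in wt FARS2 rose while EARS2 and MARS2 fell, against 2.92% of all genes lower in neil3 and 7.24% higher and 6.28% lower in wt. With 1 mean per line the count was 0 in neil3. With the replicate block the mean had 9 calls, among them HARS2, LARS2 and WARS2 lower and NARS2 higher, and neil1 had 2, neil3 4 and wt 4. Over all 14331 genes that fit called 3080 higher and 3117 lower in the mean. It called 589 and 506 in neil1, 1410 and 1512 in neil3, and 2297 and 2232 in wt. With equal library totals the mean had 7 calls, and HARS2, LARS2 and WARS2 were lower there too. In the fit without the block, the count in neil3 was 0 without media 1A and 1 without BSO 1A, BSO 1B, BSO 2B or media 2A. The count in the mean was 3 without neil1 media rep13.2 or neil2 BSO rep11.2.

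EARS2 (chr16:23520754-23557375, minus strand), the mitochondrial glutamate enzyme, had 3491, 3174 and 3053 under BSO, against 4237, 3518 and 3496 in media in neil1. Its neil2 counts were 3734, 3685 and 3456 under BSO, against 3940.2, 4129 and 3810.4 in media. In both the BSO libraries were all below media. In neil3 EARS2 had 2673, 2602, 2733 and 2603 under BSO, against 3153, 2914, 3108 and 3118 in media, also all below. The neil123 counts were 2833, 2622, 2448 and 2666 under BSO, against 2975, 2906, 2672 and 2801 in media. There the groups overlapped, as they did in wt. The wt libraries had a lowest value of 2528, a median of 2723 and a highest of 3396 under BSO, against 2699, 3225 and 3629.5 in media. EARS2 was lower under BSO in 21 of 21 pairs (-0.35 to -0.03), with a mean change of -0.17 ± 0.03 (limma adjusted p = 4.17e-06). It fell in neil3 (-0.21) and wt (-0.18), and with the replicate block in neil1 as well (-0.21, limma adjusted p = 0.00369).

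MARS2 (chr2:197705369-197708395, plus strand), the mitochondrial methionine enzyme, had 1237, 1227 and 1215 under BSO, against 1463, 1388 and 1439 in media in neil1, all below media. In neil2 it had 1424, 1413 and 1249 under BSO, against 1438, 1471 and 1301 in media, with overlap. In neil3 it had 1152, 1126, 1199 and 1188 under BSO, against 1309.8, 1201, 1399.8 and 1267 in media, with no overlap but a gap far smaller than either spread. These pairs were all lower under BSO. In neil123 MARS2 had 1374, 1308, 1330.3 and 1317 under BSO, against 1464, 1358, 1353 and 1439 in media. The wt libraries had a lowest value of 1149, a median of 1194 and a highest of 1405 under BSO, against 1283, 1391 and 1452 in media. Groups overlapped in both. MARS2 was lower in 21 of 21 pairs, with pair changes of -0.32 to -0.01 on the log2 scale, with a mean change of -0.13 ± 0.02 (limma adjusted p = 0.000115). It fell in wt (-0.15). With the replicate block it also fell in neil1 (-0.22, limma adjusted p = 0.00395) and neil3 (-0.15, limma adjusted p = 0.012).

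YARS2 (chr12:32746544-32755897, minus strand), the mitochondrial tyrosine enzyme, had 1058, 942 and 985 under BSO, against 1226, 1104 and 974 in media in neil1. The neil2 values were 1065, 995 and 1062 under BSO, against 1076, 1059.6 and 1155 in media. Groups overlapped. In neil3 YARS2 had 845, 746, 887 and 839.5 under BSO, against 969, 964, 1049 and 896 in media, all below media. In neil123 it had 826, 902, 826 and 805 under BSO, against 903, 919, 868 and 1008 in media, with overlap. The wt libraries also overlapped, with a lowest value of 787, a median of 916 and a highest of 1081 under BSO, against 863, 1029.7 and 1074 in media. YARS2 was lower in 18 of 21 pairs, with a mean change of -0.13 ± 0.03 (limma adjusted p = 0.00106), and fell with -0.23 ± 0.07 in neil3 (limma adjusted p = 0.0322). In the lettered wt pairs it changed by -0.13 and in the unlettered by -0.02.

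IARS2 (chr1:220094132-220148041, plus strand), the mitochondrial isoleucine enzyme, had 5296, 5715 and 5449 under BSO, against 5866, 5733 and 6032 in media in neil1. In neil2 it had 6359.7, 5763 and 5656 under BSO, against 6035, 5895 and 6046 in media. The neil1 libraries were separated and the neil2 libraries were not. In neil3 IARS2 had 3801, 3899.6, 3562 and 3555 under BSO, against 4021, 3957, 3915 and 4092 in media, all below media. In neil123 it had 4183, 4319, 3758 and 4333 under BSO, against 4179, 4059.6, 4084 and 4586 in media. The wt libraries had a lowest value of 3659.8, a median of 4269 and a highest of 5799 under BSO, against 4045, 4184 and 6067 in media, and those ranges overlapped. IARS2 was lower in 16 of 21 pairs with a mean change of -0.06 ± 0.02 (limma adjusted p = 0.0297). It passed in no genotype alone, and without the label-set term the mean missed the threshold (limma adjusted p = 0.534). The call was kept in 36 of the 42 fits that leave out a library. In media its wt level was 5831 in the unlettered and 4089 in the lettered libraries.

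FARS2 (chr6:5249934-5771583, plus strand), the mitochondrial phenylalanine enzyme, was the 1 mitochondrial member called higher without the replicate block. It had 591, 496 and 507 under BSO, against 536, 482 and 469.8 in media in neil1. FARS2 counts in neil2 were 531, 542 and 503 under BSO, against 464, 495 and 530.0 in media. Groups overlapped in both. In neil3 FARS2 had 565, 460.0, 504 and 503 under BSO, against 500.0, 454, 505 and 468 in media. Its neil123 counts were 524, 519, 493 and 460.3 under BSO, against 507, 459.7, 491 and 528 in media. The groups overlapped there too. Over the wt pairs FARS2 had a lowest value of 481, a median of 533 and a highest of 585 under BSO, against 423, 469.7 and 538 in media. FARS2 was higher in 17 of 21 pairs, with a mean change of 0.09 ± 0.03 (limma adjusted p = 0.0389), and rose with 0.18 ± 0.05 in wt (limma adjusted p = 0.0185). Its adjusted p in the mean by limma was 0.143 with 1 mean per line, 0.0802 without the label-set term, 0.0572 with equal library totals and 0.0557 with no filter on low values. The call was kept in 28 of the 42 fits that leave out a library, with adjusted p of up to 0.0934.

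The other 11 mitochondrial genes did not pass in the mean. They lay between -0.10 (limma adjusted p = 0.436) for VARS2 and 0.07 (limma adjusted p = 0.294) for PARS2, the valine and proline enzymes. VARS2 and SARS2 had the fewest reads (wt media means of 83.5 and 226 in lettered, 38.3 and 143 in unlettered libraries) and the widest pair changes, -0.77 to 0.93 and -0.49 to 0.54. HARS2, for histidine, had -0.08 (limma adjusted p = 0.0761), WARS2, for tryptophan, -0.08 (limma adjusted p = 0.0776) and LARS2, for leucine, -0.05 (limma adjusted p = 0.088). They were lower in 16, 17 and 16 of 21 pairs. WARS2 is overlapped by an antisense gene, so that without strand its reads cannot be told apart from that gene's. NARS2, TARS2, RARS2, AARS2 and CARS2 had changes of -0.004 to 0.06.

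For each amino acid with both genes described, the cytosolic and the mitochondrial gene were set side by side, which gave 17 pairs of genes, with EPRS1 paired to EARS2 and PARS2 and FARS2 to both FARSA and FARSB. The cytosolic change exceeded the mitochondrial one in 21 of 21 library pairs for AARS1 and AARS2, CARS1 and CARS2, EPRS1 and EARS2, IARS1 and IARS2, MARS1 and MARS2, WARS1 and WARS2, and YARS1 and YARS2. Over all 17 the differences (log2, mean of the genotypes) were widest for WARS1 over WARS2 at 0.53, SARS1 over SARS2 at 0.50, above 0 in 20 of 21 pairs, and MARS1 over MARS2 at 0.46. The tyrosine enzymes differed by 0.36, with YARS1 up and YARS2 down. The sign was the other way for FARSB and FARS2 (-0.14, above 0 in 2 of 21 pairs), FARSA and FARS2 (-0.11), HARS1 and HARS2 (-0.06) and RARS1 and RARS2 (-0.05). In each of these 4 the cytosolic gene is outside the ATF4-described list, which was chosen with earlier results of these data known.

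**Figure D3:**
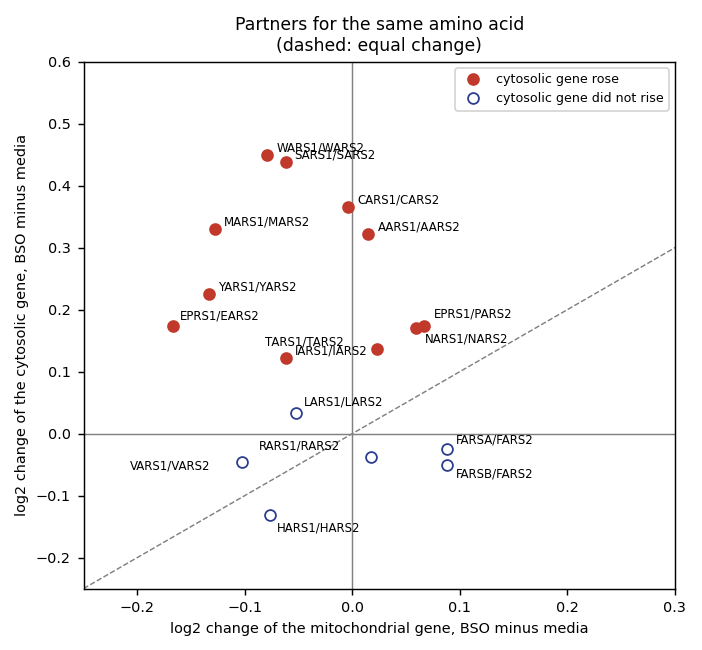
Mean log2 change under BSO of the cytosolic gene (vertical axis) against that of the mitochondrial gene for the same amino acid (horizontal axis), each point 1 of 17 gene pairs and the dashed line marking equal change. Filled points, whose cytosolic gene rose, lie above the line, from 0.11 to 0.53 above it; the pairs below it are those of HARS1, RARS1, FARSA and FARSB.

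Pair by pair, the median log2 change of the 19 cytosolic genes was above that of the 16 mitochondrial genes in 21 of 21 pairs, by 0.07 to 0.31. The 13 ATF4-described genes had medians of 0.09 to 0.38, the 6 other cytosolic genes -0.17 to 0.14, the mitochondrial genes -0.09 to 0.06, and all genes tested -0.015 to 0.033. The median of the ATF4-described genes was above 0 in 21 pairs, that of the other cytosolic genes in 3 and that of the mitochondrial genes in 6. These are descriptions of lists, without a test, and the lists were chosen with earlier results of these data known. Among the 7 wt pairs, the medians of the other cytosolic genes' changes were -0.08 in the lettered and 0.06 in the unlettered set, and those of the ATF4-described genes 0.31 and 0.32.

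**Figure D4:**
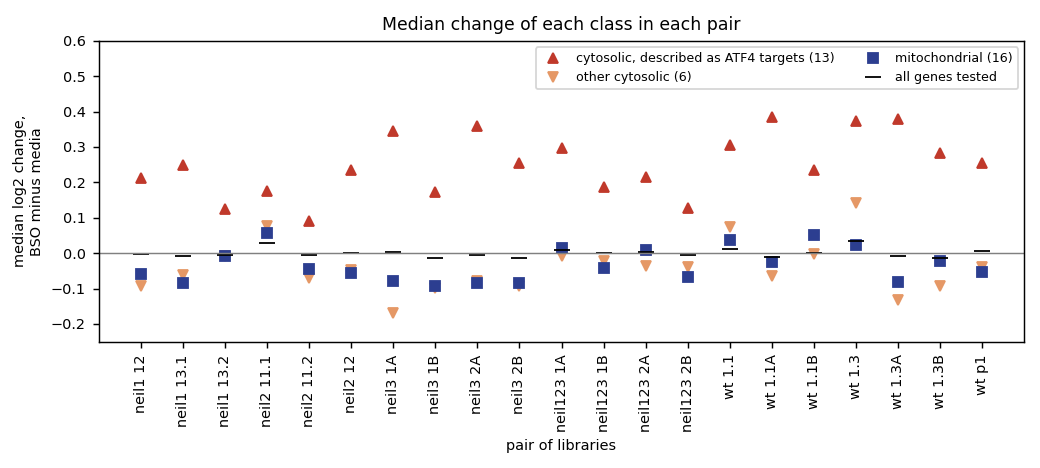
Median log2 change, BSO minus media, on the vertical axis in each of the 21 pairs of libraries, for 13 cytosolic genes described as ATF4 targets (triangles up), 6 other cytosolic genes (triangles down), 16 mitochondrial genes (squares) and all genes tested (dashes). The triangles up lie between 0.09 and 0.38 in every pair, above every other mark of that pair.

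Pairs differed in how far the whole group moved. Of the 11 genes that rose, 5 had their smallest change in the neil123 2B pair (CARS1, GARS1, MARS1, SARS1 and WARS1), 3 in neil2 rep11.2 (AARS1, NARS1 and YARS1), 2 in wt 1.1 (EPRS1 and IARS1) and TARS1 in neil3 1B. The largest change was in wt 1.1A for 6 genes and in wt 1.3A for 3. The GARS1 log2 change was 0.21 in neil123 2B and 0.76 in wt 1.1A. ATF4 RNA had its own smallest change, 0.20, in neil123 2B. Its largest, 0.72, was in wt 1.3.

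**Figure D5:**
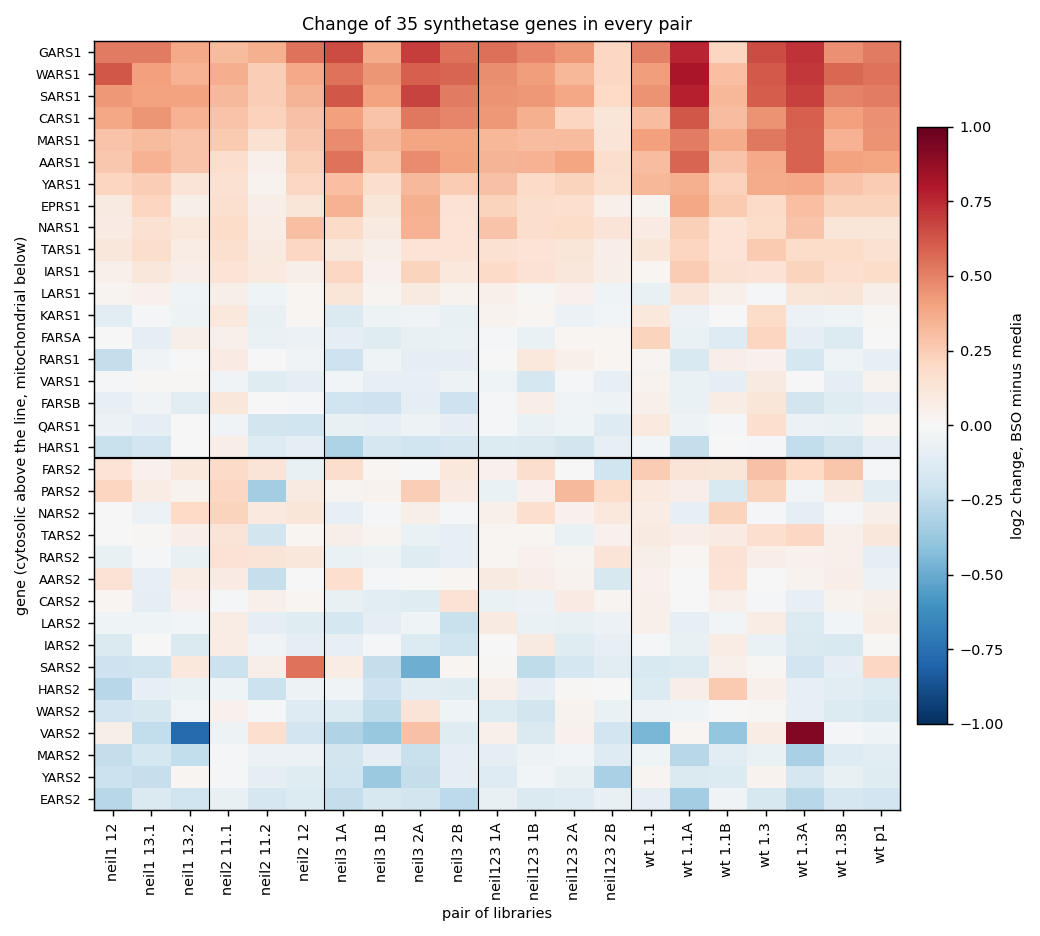
Log2 change, BSO minus media, of the 35 genes (rows, cytosolic above the thick line) in all 21 pairs of libraries (columns, by genotype), with red for higher and blue for lower under BSO on a scale of -1 to 1. The 11 rows at the top are red in every column, 5 of them palest at neil123 2B, and the EARS2 and MARS2 rows are blue in every column.

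Within the multi-tRNA synthetase complex the 7 catalytic members described differed in their calls. Of these EPRS1, IARS1 and MARS1 rose, QARS1 fell, and LARS1, KARS1 and RARS1 did not pass, with a median log2 change of 0.03. Among all genes 13.09% were higher and 12.5% lower, which holds for the scaffold proteins below as well. Of the 3 scaffold proteins, AIMP1 rose with 0.09 ± 0.02 (limma adjusted p = 0.0012), EEF1E1, which is also called AIMP3, fell with -0.15 ± 0.04 (limma adjusted p = 0.00544), and AIMP2 had 0.02 ± 0.03 (limma adjusted p = 0.642).

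Among 12 tested partners of aminoacylation 4 rose and 2 fell (13 listed, 1 not analysed here), against 13.09% higher and 12.5% lower among all genes. With the replicate block 5 rose and 4 fell, while 3080 of all 14331 genes were higher and 3117 lower. XPOT, which exports tRNAs from the nucleus, changed by 0.28 ± 0.03 (limma adjusted p = 3.06e-10). SEPSECS, the enzyme that turns the serine on selenocysteine tRNA into selenocysteine, changed by 0.19 ± 0.05 (limma adjusted p = 0.0016), and DTD1, which removes D-amino acids from tRNAs, by 0.15 ± 0.03 (limma adjusted p = 0.000552). TRNT1, which adds the CCA end that every tRNA needs before loading, fell with -0.20 ± 0.03 (limma adjusted p = 1.31e-05). Of 13 mitochondrial partners 0 rose and 5 fell, by limma and by edgeR, against the same limma shares among all genes (13.09% higher, 12.5% lower). At an unadjusted p under 0.05 there were 6 of these partners, and the share of all genes at that threshold is not given. The largest falls were in MTRF1L, a release factor, with -0.14 ± 0.03 (limma adjusted p = 0.00157), QRSL1, a subunit of the amidotransferase that acts after EARS2, with -0.12 ± 0.03 (limma adjusted p = 0.00506), and MRRF, the ribosome recycling factor, with -0.09 ± 0.02 (limma adjusted p = 0.00149). GFM1, a mitochondrial elongation factor, was not called under BSO but was called in media against wt. It had a lowest value of 3496, a median of 6472 and a highest of 6755 in neil1 media and a lowest value of 5584, a median of 5761 and a highest of 6032 in neil123 media, against a lowest value of 2371, a median of 3016 and a highest of 3429 in wt media. The lowest of the 3 neil1 libraries was close to the highest wt library, and the other 2 lay far above it. The log2 difference from wt was 0.67 ± 0.15 in neil1 (limma adjusted p = 0.0325) and 1.13 ± 0.13 in neil123 (limma adjusted p = 1.75e-07).

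ATF4 and its described pathway were measured in the same libraries. ATF4 RNA had a lowest value of 18859, a median of 21702 and a highest of 25380.0 under BSO, against 14165, 15368 and 16458 in media in wt, without overlap, and a mean log2 change of 0.41 ± 0.03 (limma adjusted p = 6.33e-12). Its groups were separated in all 5 genotypes. Of 30 tested genes of the pathway (XPOT counted here again, 1 not analysed here), 28 rose and 0 fell in the mean, against 13.09% and 12.5% of all genes. ASNS, asparagine synthetase, changed by 0.997 ± 0.11 (limma adjusted p = 1.52e-08). GDF15, a stress cytokine, changed by 2.07 ± 0.17 (limma adjusted p = 1.07e-11), NUPR1, a stress-induced nuclear protein, by 2.09 ± 0.21 (limma adjusted p = 9.87e-10) and CHAC1, which breaks down glutathione, by 1.70 ± 0.13 (limma adjusted p = 4.48e-12). The median log2 change of the 30 was 0.60, against 0.23 over the 13 ATF4-described synthetases. By genotype 20 rose in neil1, 1 in neil2, 28 in neil3, 21 in neil123 and 28 in wt, against 0.823%, 0.14%, 3.36%, 1.33% and 7.24% of all genes higher in these genotypes. With the replicate block 27 rose in neil2, while 529 of all 14331 genes were higher in that fit. The part of ATF4 in the synthetases' changes was not tested.

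Per kilobase of exon, averaged over all libraries, the cytosolic genes had a median level of 1729 normalized reads, between 305 for CARS1 and 3581 for GARS1, and the mitochondrial genes a median of 353, between 7.6 for VARS2 and 1148 for IARS2. After GARS1 the highest levels per kilobase were 2524 for FARSA and 2366 for SARS1. Lengths are unions of all annotated exons, which need not all be used in HAP1. Some levels differed by label set within wt. In media EPRS1 averaged 6316 in the lettered and 9365 in the unlettered wt libraries, NARS1 6912 and 9619, and FARSA 6733 and 5605. For this reason the fit carries a term for the label set, and levels of neil1 and neil2 are not set beside those of neil3 and neil123.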

How the data were processed

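RNA of 42 libraries of HAP1 cells was analysed from 1 deposited table of 30182 entries. Its values are read counts per gene that the authors normalized (a signal, not raw counts). The submitters' processing notes name Trim Galore, HISAT2, SAMtools, featureCounts and DESeq2 with the build GRCh38; their versions and the strand setting of the counting are not stated in the labels. Dividing by each column's smallest step gave whole reads for 100% of values (tolerance 1e-06). Depth was thus known, with 26.8 to 30.7 M reads in named genes. Entries without a gene name held 0.868% to 1.25% of all reads, come on top of these and were left out of the tests.

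The test was limma 3.58.1 (R 4.3.3) with an intensity trend on log2(value + 1), fitted to all 42 libraries with 10 groups and a label-set term (replicate names with or without a final letter), for the 14331 named genes whose mean was at least 10. Fold changes on this scale understate the change of genes with few reads. The threshold was a Benjamini-Hochberg adjusted p under 0.05 over all tested genes in each comparison. The scripts were tested on simulated data.

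Replicate names pair BSO and media libraries. The deviations of the 21 pairs from their group means correlated across genes with r = 0.375 to 0.849. Every r was above 0.1, so the names were taken as pairs. These deviations also hold differences between lines, and in wt between label sets. Libraries of the same line can therefore correlate without being a pair, and these correlations cannot decide that. After the label-set term r was -0.0793 for wt 1.1 and 0.0554 for wt 1.3, both unlettered pairs, and above 0.1 for every other pair. The fit with a replicate block is printed beside a result where a call, or a count by over 1.5 times, differed. In that fit 3080 genes were higher and 3117 lower in the mean of the genotypes. On the recovered reads edgeR 4.0.16 (quasi-likelihood, TMM) called 1850 higher and 1880 lower there, against 1876 and 1791 with limma. Other alternatives were no label-set term, 1 mean per line, only the compared groups and pseudocounts of 0.5 and 5. Further ones were a mean of 50 or more, no filter, equal totals, and leaving out each library. The fit with 1 mean per line averaged libraries by line, label set and treatment.

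The members and lists were chosen with earlier results of these data known. Of the 37 genes found by the rule 2 are not reported here; they were fitted with all other genes and left out of the counts and medians of members. Values in every knockout library, and the lowest, median and highest of wt, are given for the 8 cytosolic and 5 mitochondrial genes with the largest called mean change and for GARS1 and KARS1, which serve both compartments; other members are given by range. Exon lengths are from the GRCh38 annotation, and promoter sequences from RefSeq tables. Tables and figures were made with Python 3.11.15, pandas 2.3.3, numpy 2.4.6 and matplotlib 3.10.9.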

Additional observations from a re-analysis of the deposited data

Results flagged for a closer look

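A library of 1 gene stood apart from its group. GARS1 in the neil123 media library 2A was 9821.8 normalized reads, with the other neil123 media libraries at 10749.3 to 10864.9. The gap to the nearest of them was 0.889 of the whole range. Chance flags about 1 in 20 groups, and here 1 of 84 groups of 4 or 7 libraries, over 14 genes, was flagged.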

How the results depend on the processing

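Of the 13 cytosolic genes called in the mean of the genotypes, 13 kept their call whichever library was left out and 12 under every other alternative run; the exception was QARS1 without the label-set term. Of the 5 mitochondrial genes 3 kept theirs under both, the exceptions being FARS2 and IARS2. No result changed direction past a threshold. With the replicate block, which uses the pairs, the counts were 9 mitochondrial calls in the mean, 8 cytosolic rises and 2 mitochondrial calls in neil1, 7 rises in neil2, 4 mitochondrial calls in neil3 and 11 rises in neil123. Cytosolic falls in the mean were 4 with it, against 2 without, falls among the aminoacylation partners 4 against 2, and rises of the ATF4 pathway in neil2 27 against 1. Calls over all genes grew as well, to 3080 higher and 3117 lower in the mean, against 1876 and 1791 without it. Without the label-set term there were 3 mitochondrial calls in the mean, 2 cytosolic rises in neil1, 0 mitochondrial calls in neil3, 3 rises in neil123, and in media 3 calls in neil2 and 1 in neil123 against wt. With 1 mean per line there were 0 cytosolic rises in neil1, 4 in neil3 and 0 in neil123, and 0 mitochondrial calls in neil3. With only the compared groups there were 0 rises in neil1 and 1 mitochondrial call in neil3. Equal totals gave 7 mitochondrial calls in the mean and 2 in neil1, and FARSB and VARS1 fell there in the mean. No filter gave 3 rises in neil123. The fits by line and by compared groups hold fewer samples. The causes of these differences were not tested. Leaving out 1 library at a time gave 11 to 11 cytosolic rises in the mean, 0 to 7 in neil1, 0 to 0 in neil2, 8 to 9 in neil3, 2 to 6 in neil123 and 10 to 11 in wt. It gave 3 to 6 mitochondrial calls in the mean, 0 to 2 in neil3, 3 to 4 in wt and 0 to 0 in neil1, neil2 and neil123. All comparisons with wt in media and all differences of BSO changes stayed at 0 when a library was left out. VARS2 and SARS2 had the fewest reads and the widest pair changes; the part of depth in this was not tested.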
